A study of Homo sapiens with 9 samples.

Results

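OSBPL10, TBC1D9, GAPT, IQGAP2, SEL1L3, CLMN and VPREB3 are 7 genes selected for standing lowest on the low Myc arrays of P493-6, a human B-lymphocyte line. They are 7 of 19775 genes measured and were read by 20 of 54675 probe sets, all those whose single gene symbol is a member. Because measured values chose them, their distance from the other groups in low Myc is given as a description, without a test. The series holds 9 expression arrays of total RNA from this 1 line, 4 labelled high Myc, 3 low Myc and 2 no Myc. As background, P493-6 was immortalized with Epstein-Barr virus and carries a MYC gene that tetracycline shuts off and a form of the viral transcription factor EBNA2 that needs estrogen. The labels name no agent, time or culture, so the Myc level and whatever set it cannot be told apart. Nothing states that replicates came from separate cultures, so p-values measure only how far these arrays scatter, and that scatter may be technical.

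Values are intensities, the brightness of a probe set on a linear scale, and differences are on the log2 scale. MYC itself had an intensity of 11326 to 15404 in high Myc and 1443 to 2526 in low Myc. In the library labelled no Myc 1 it was 2803, above every low Myc array and against the label, and in no Myc 2 it was 416. Of 14 B-cell markers, 13 were measured and 12 had a mean log2 over all 9 arrays of at least 8, while 0 of 9 T and NK cell markers and 0 of 7 measured myeloid markers had that mean over all arrays. In no Myc alone 2 myeloid markers passed that level, LYZ at 8.99 and ITGAM at 10.3. The mean over the B-cell markers was 11.3 to 11.6 on the no Myc arrays, 9.69 to 10.4 in high Myc and 9.81 to 9.96 in low Myc. The mean over the myeloid markers was 6.35 to 6.53, 5.30 to 5.55 and 5.20 to 5.31, a shift carried by LYZ and ITGAM, since the list's median difference from no Myc was -0.11 in high and -0.15 in low Myc. CD14 and CSF1R were under 5.5 in all 3 groups. Whether these shifts have a part in the members' values was not tested, and fewer cells of a type and less RNA per cell cannot be told apart in such samples.

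The 7 genes are linked to immunoglobulin chains and receptor signalling, to membranes and to the cytoskeleton. VPREB3 associates with immunoglobulin chains inside B-lineage cells, and GAPT is a transmembrane adaptor that binds GRB2, a link between receptors and RAS. OSBPL10 belongs to the oxysterol-binding protein relatives, which move lipids between membranes. TBC1D9 has the TBC domain found in proteins that switch off Rab GTPases of vesicle traffic, and SEL1L3 is a membrane protein with SEL1-like repeats. IQGAP2 is a scaffold that binds CDC42, RAC1 and actin, and CLMN, calmin, is a membrane-anchored protein with the calponin-homology domains of many actin-binding proteins.

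Promoters of the members, which were selected for a shared pattern, were read for motifs. RefSeq windows of build GRCh38.p14, from 250 bases before to 50 bases after a start site, were at hand for 5 members, 8 windows in all. The octamer ATGCAAAT, the site of POU2F factors in immunoglobulin promoters, was found on either strand in 2 of the 8 windows and in 1.77% of the 35116 windows of all genes. The 250 bases before those 2 starts are shown to place that match, 5′ to 3′ along the gene, with the octamer in capitals; they lie at chr22:23754426-23754675 (VPREB3) and chr4:25863567-25863816 (SEL1L3), both on the minus strand.
VPREB3: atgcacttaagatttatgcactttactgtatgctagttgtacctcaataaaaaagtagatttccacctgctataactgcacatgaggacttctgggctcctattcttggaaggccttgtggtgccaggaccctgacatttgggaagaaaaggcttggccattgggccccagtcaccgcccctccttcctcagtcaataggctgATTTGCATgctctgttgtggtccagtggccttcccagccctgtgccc
SEL1L3: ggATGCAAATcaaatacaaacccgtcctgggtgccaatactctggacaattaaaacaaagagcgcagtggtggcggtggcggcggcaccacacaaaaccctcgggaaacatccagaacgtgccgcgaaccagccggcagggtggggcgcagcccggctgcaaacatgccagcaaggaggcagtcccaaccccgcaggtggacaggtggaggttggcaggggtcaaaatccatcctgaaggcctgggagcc
In VPREB3 the octamer ran from 47 to 40 bases before the start, on the opposite strand. In SEL1L3 it ran from 248 to 241 bases before 1 of the 2 starts, on the same strand.

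Other motifs were searched on both strands in the same windows. CACGTG, the E-box bound by MYC with MAX, was in 0 of the 8 windows and in 7.26% of all windows. CAGGTG, an E-box of E2A-type factors, was in 4 of 8 and in 20.6% of all, and CCCNNGGG, the EBF1 core, in 3 and in 19.1%. GAGGAA, the PU.1 core, was in 5 of 8 and in 27.9% of all, and TGTGGT, the RUNX core, in 2 and in 13.1%. TGGGAA, the core of RBPJ, through which EBNA2 acts, was in 4 of 8 and in 24.0%. Several windows belong to the same gene, SEL1L3 or IQGAP2. Counted by gene, the E2A-type E-box was in 3 of the 5 members with a window and the EBF1 core in 2. The PU.1, RUNX and RBPJ cores were in 4, 2 and 4 of these 5. A gene with several windows has more places for a match, and no share by gene was computed over all genes. The counts by gene therefore cannot be set beside the shares of windows. No match of one motif overlapped a match of another in the members' windows, and a match describes the letters only.

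VPREB3 and GAPT, the genes linked to immunoglobulin chains and receptor signalling, were highest in no Myc, intermediate in high Myc and lowest in low Myc. VPREB3 had intensities of 6131 and 5063 on the no Myc arrays, of 746, 149, 556 and 853 on high Myc 1 to 4, and of 77.2, 99.3 and 186 on low Myc 1 to 3. The no Myc arrays stood far above the rest, and high Myc 2 fell inside the low Myc range. GAPT had intensities of 1817 and 1013 in no Myc, 378, 46.4, 178 and 192 in high Myc, and 46.5, 27.7 and 35.2 in low Myc. Here too high Myc 2 overlapped the low Myc arrays, and the other high Myc arrays did not. The low Myc mean of VPREB3 lay 49.5-fold under no Myc and 4.26-fold under high Myc, and that of GAPT 38.1-fold and 4.39-fold. All low Myc arrays of GAPT, and high Myc 2, lay under the array medians of 75.3 to 80.3, a dim level, so its folds are not exact. VPREB3 on low Myc 1, at 77.2, lay within the range of those medians, so its folds are not exact either.

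OSBPL10, TBC1D9 and SEL1L3, the genes of lipid transfer, vesicle traffic and membranes, had the same order of group means. OSBPL10 had intensities of 2401 and 1698 in no Myc, 754, 46.5, 607 and 778 in high Myc, and 22.3, 20.1 and 27.1 in low Myc. The low Myc arrays lay under all others, and since their mean log2 was 4.52, a dim level, the folds of 87.7 under no Myc and 15.6 under high Myc are not exact. TBC1D9 had intensities of 4990 and 4032 in no Myc, 788, 194, 469 and 757 in high Myc, and 54.9, 75.5 and 88.7 in low Myc. Its 3 groups did not overlap, with low Myc 62.6-fold under no Myc and 6.74-fold under high Myc. TBC1D9 on low Myc 1, at 54.9, lay under the array medians of 75.3 to 80.3. On low Myc 2, at 75.5, it lay within their range, so its folds are not exact either. SEL1L3 had intensities of 3069 and 3168 in no Myc, 2394, 594, 1794 and 2138 in high Myc, and 188, 207 and 248 in low Myc. High Myc 2 sat between the other high Myc arrays and the low Myc arrays, and low Myc lay 14.7-fold under no Myc and 7.19-fold under high Myc.

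IQGAP2 and CLMN, the cytoskeletal genes, had close levels in high and no Myc and a low level in low Myc. IQGAP2 had intensities of 836 and 848 in no Myc, 620, 382, 647 and 706 in high Myc, and 114, 36.9 and 91.3 in low Myc. The groups did not overlap, and its low Myc arrays had the largest SD of the 7 genes there, 0.86 (log2, n = 3). CLMN had intensities of 381 and 360 in no Myc, 359, 199, 266 and 326 in high Myc, and 41.1, 58.5 and 48.0 in low Myc. High Myc 1 all but reached the lower no Myc array, while the low Myc arrays stood apart. Low Myc lay 11.6-fold under no Myc and 7.89-fold under high Myc for IQGAP2, and 7.61-fold and 5.77-fold for CLMN. All low Myc arrays of CLMN, and low Myc 2 of IQGAP2, were under the array medians, so the folds of both genes are not exact. Without low Myc 2 the log2 distance of IQGAP2 from high Myc went from -2.98 to -2.49.

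**Figure D1:**
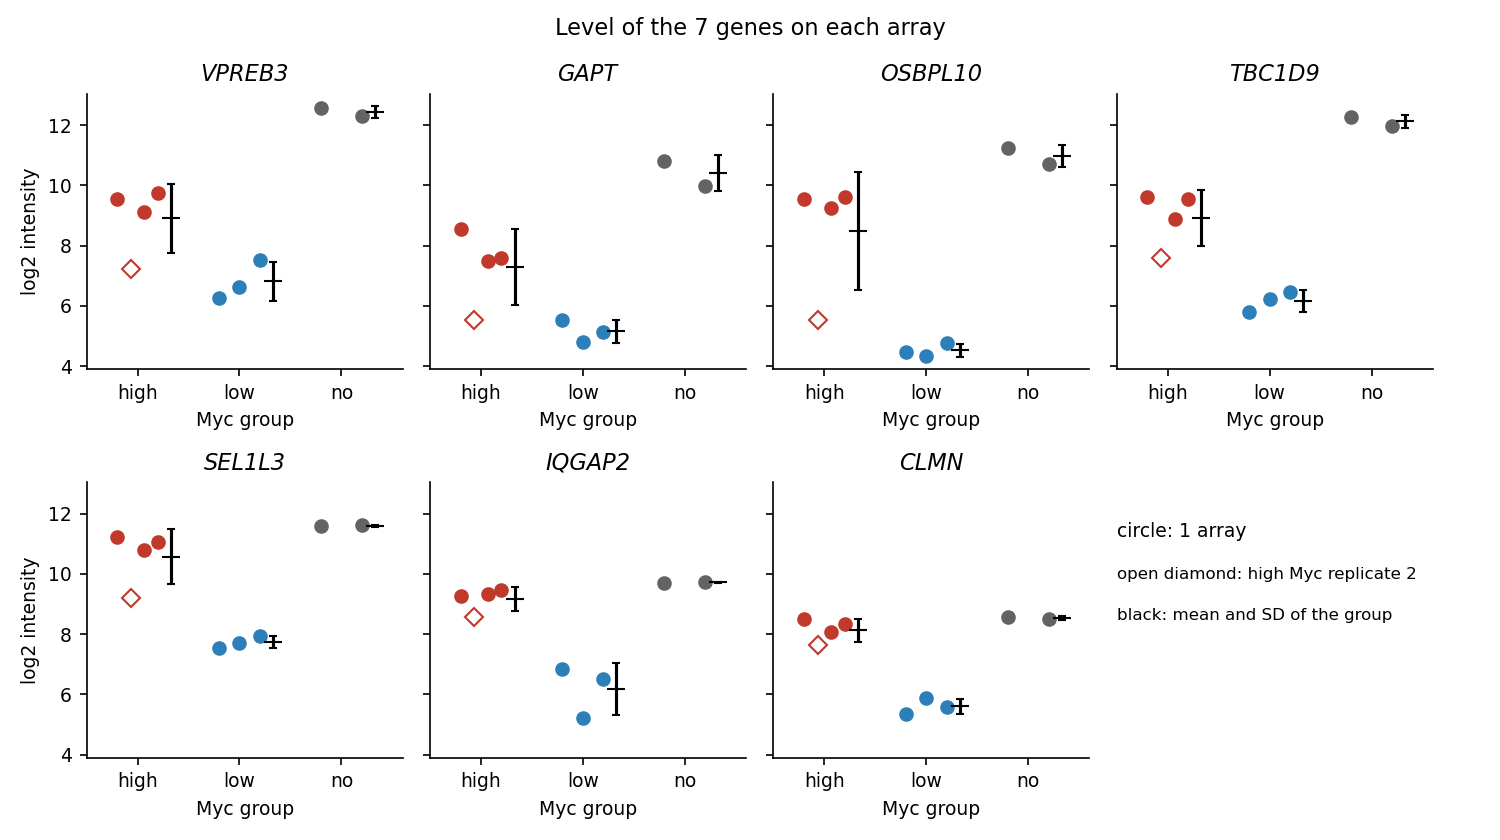
Log2 intensity of each of the 7 genes on every array, by Myc group, with group means and SD; high Myc replicate 2 is marked apart. The low Myc mean is the lowest in every panel, and high Myc 2 is the lowest high Myc array in all 7.

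On the low Myc arrays 5 of the 7 genes lay under every other array, all but VPREB3 and GAPT. The members were selected on such values, and the share of all genes with this separation was not computed. Ranked over all genes by the smaller of their 2 distances, OSBPL10 stood 2nd and VPREB3 17th, behind JCHAIN, the joining chain of secreted antibodies, in first place. A call of lower in low Myc than in both other groups was made for 171 genes (0.865%), the same 5 members among them, which restates how they were selected. Leaving out high Myc 2, the lowest high Myc array in all 7, necessarily widened each distance to high Myc. That distance went from 15.6-fold to 30.8-fold for OSBPL10, from 6.74-fold to 9.13-fold for TBC1D9 and from 4.26-fold to 6.29-fold for VPREB3.

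The difference of high from no Myc is taken without the low Myc arrays, which enter only the estimate of the spread. Yet the members were selected for low Myc standing under both other groups, so their high and no Myc values took part in the choice. The counts are therefore not free of the selection, and all genes are not a matched background for them. With limma on all 9 arrays and a call at an adjusted p under 0.05 over 19775 genes, VPREB3, TBC1D9 and GAPT were lower in high Myc, 3 of 7, and 0 of 7 were higher. Over all genes 9.0% were called lower and 14.2% higher. VPREB3 was 11.6-fold lower, at a mean log2 of 8.90 ± 1.15 (SD, n = 4) in high Myc and 12.44 ± 0.20 (n = 2) in no Myc, a difference of -3.54 ± 0.65 (SE; limma adjusted p = 0.00375). TBC1D9 was 9.29-fold lower, by -3.22 ± 0.50 (limma adjusted p = 0.00172). Both were called in each of the 9 fits that left out 1 array. GAPT was 8.68-fold lower, by -3.12 ± 0.68 (limma adjusted p = 0.00935), and was not called once the library labelled no Myc 1 was left out (-2.70, adjusted p = 0.103).

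OSBPL10 and SEL1L3 passed only when high Myc 2 was left out. OSBPL10 differed by -2.49 ± 1.01 (limma adjusted p = 0.125) with an SD of 1.97 among its high Myc arrays, and by -1.51, or 2.85-fold, without that array (adjusted p = 0.00126). SEL1L3 differed by -1.03 ± 0.48 (limma adjusted p = 0.193), and by -0.57 without it (adjusted p = 0.0359). IQGAP2 differed by -0.55 ± 0.41 (limma adjusted p = 0.472) and CLMN by -0.40 ± 0.23 (adjusted p = 0.316), and neither was called in any of the 9 fits. For IQGAP2 the limma adjusted p was 0.173 with only the 2 groups fitted and 0.154 to 0.896 over all alternatives. Using the median of the probe sets, the difference was -2.37 for TBC1D9, still called, -0.97 for OSBPL10, -0.64 for SEL1L3 and -0.06 for CLMN. All 4 high Myc arrays were below both no Myc arrays in 7 of 7 genes and in 17.8% of all genes, with the same limit from the selection. GAPDH probe sets at the 3′ and the 5′ end of the transcript, a sign of RNA quality, differed by 0.25 and 0.42 (log2) in no Myc and by 0.01 to 0.24 elsewhere. Those of ACTB did not set no Myc apart, at 0.0039 and -0.011 there and -0.074 to 0.19 elsewhere, and the part of this in the differences was not tested.

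**Figure D2:**
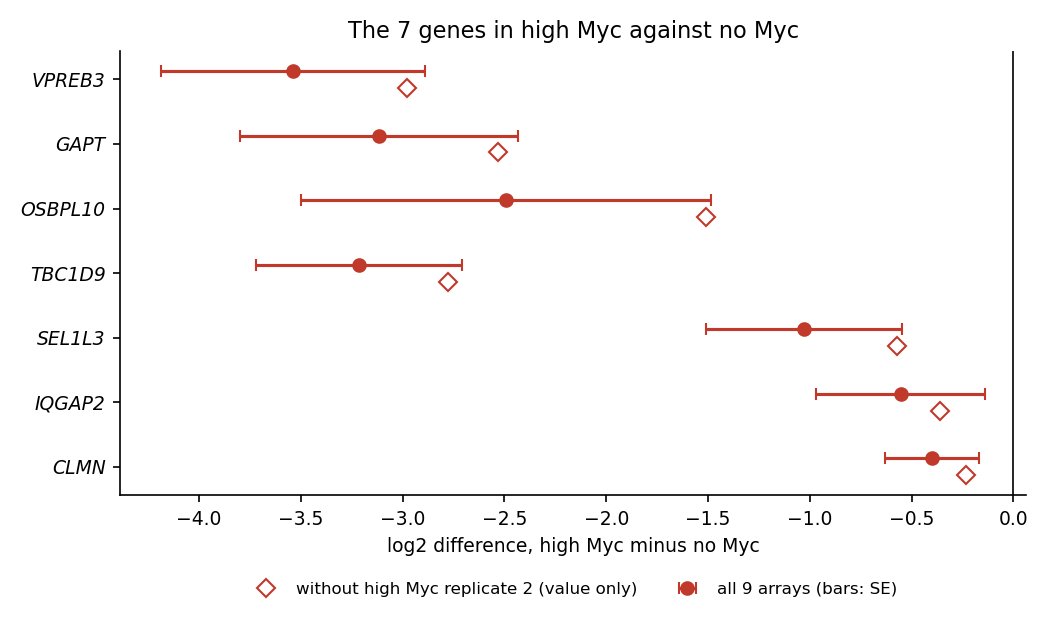
Log2 difference of high Myc from no Myc for the 7 genes, with its SE, on all arrays, and the value without high Myc replicate 2. On all arrays VPREB3, TBC1D9 and GAPT lie beyond -3 and IQGAP2 and CLMN at -0.55 and -0.40; without that array they lie at -2.98, -2.78, -2.53, -0.36 and -0.23.

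High Myc 2 was the lowest of the 4 high Myc arrays in 7 of 7 genes and in 19 of their 20 probe sets, and it was the lowest in 27.4% of all genes. It was also the lowest in 64.5% of the 166 other genes called lower in low Myc than in both other groups. The 7 genes correlate with each other, so they do not read this array 7 separate times. GAPT on this array was 5.05-fold under the mean of the other 3, which is 86.0% of their log2 distance to low Myc. The share of that distance was 84.7% for VPREB3, 79.4% for OSBPL10, 55.0% for SEL1L3 and 54.9% for TBC1D9, and 24.6% for both IQGAP2 and CLMN. The difference between genes in this share was not tested, and the values of GAPT and OSBPL10, at 46.4 and 46.5 on this array, rest on dim levels and are not exact. Across all genes this array correlated at 0.977 to 0.986 with the other high Myc arrays and at 0.974 to 0.982 with low Myc, whereas those others correlated at 0.988 to 0.992 among themselves. Its MYC intensity, 11326, was the lowest of high Myc and above every low Myc array.

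Other genes moved on high Myc 2 as well. It was the lowest high Myc array in 51.5% of the 1684 other genes called lower in low than in no Myc, and the highest in 51.1% of the 2228 called higher. Its median share of the log2 distance from the other high Myc arrays to low Myc was 48.5% in the lower genes. In the higher ones it was 10.5%. Both sets were called against no Myc only, so that distance can be near 0 and these shares are not reliable. In genes called against both other groups the median share was 25.8% in the 166 lower ones, members left out. It was 39.1% in the 98 higher ones and 55.0% in the 7 members. The share of all genes in which this array was the highest was not computed. Genes linked to EBNA2, a list of 11 of which 10 were measured, had a mean log2 of 9.39 on this array, 7.80 to 8.17 on the other high Myc arrays, 9.90 to 10.4 in low Myc and 9.10 to 9.29 in no Myc. CR2, the receptor by which Epstein-Barr virus enters B cells, was higher in low Myc than in high Myc by 3.38 ± 0.41 (limma adjusted p = 0.00456) and than in no Myc by 3.61 ± 0.49 (adjusted p = 0.00141). Against high Myc, 4 of the 10 were higher in low Myc (40%, beside 1.27% of all genes). That count was 8 without high Myc 2, 4 without low Myc 2 and 2 without any other single array. Against no Myc, 2 were higher in low Myc (20%, beside 11.3%) and 0 lower. In high against no Myc 0 were higher and 1 was lower (10%, beside 9.0%), 8 without high Myc 2. The list's median difference from no Myc was 0.70 in low and -0.77 in high Myc. The part of these shifts in the members' levels was not tested.

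**Figure D3:**
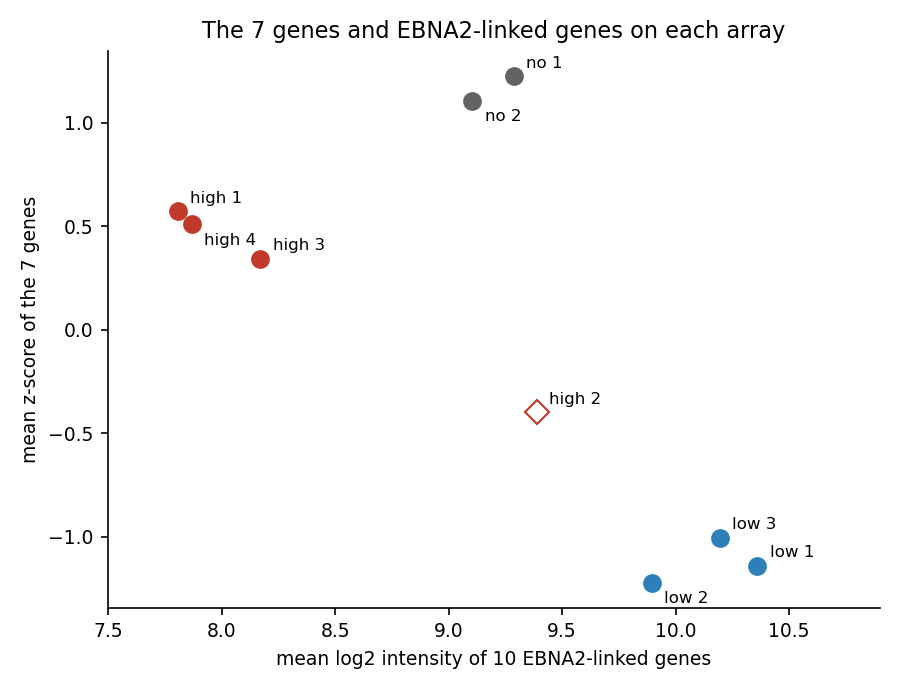
Each point is 1 array, by the mean log2 intensity of 10 EBNA2-linked genes and the mean z-score of the 7 genes over the 9 arrays. High Myc 2 lies between the other high Myc arrays and the low Myc arrays on both axes, at 9.39 and -0.40.

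The 20 probe sets differed in how far they fell. VPREB3 and GAPT had 1 each, the other 5 genes had several, and the one with the highest mean stood for the gene. The low Myc mean was the lowest of the 3 in 20 of 20, and all low Myc arrays lay under all others in 10. The genes were selected on such values and no share over all probe sets was computed, so these counts are a description. Several of the differences were small. All 4 of CLMN separated in this way, at -2.53, -0.81, -1.42 and -1.57 from high Myc, although 1 of them had high Myc above no Myc by 0.44. SEL1L3 separated in 2 of 4, at -2.85 and -2.45, and the others read -0.77 and -0.09. OSBPL10 separated in 1 of 5, and the others read -0.41, -1.08, -0.14 and -0.21. TBC1D9 separated in 2 of 3, the second at -0.49 from high Myc and -2.86 from no Myc, and the other read -0.16 from high Myc. IQGAP2 separated in 1 of 2, with -0.10 and -0.46 for the other.

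**Figure D4:**
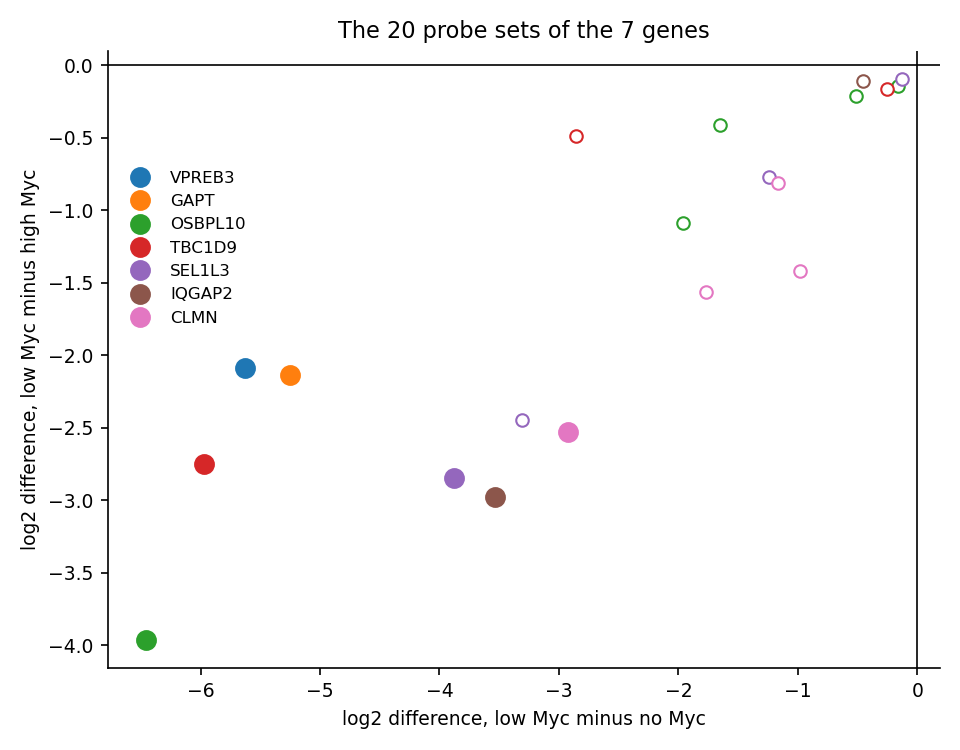
Each point is 1 of the 20 probe sets, by its log2 difference of low Myc from no Myc and from high Myc; the one that stands for its gene is marked. All 20 lie under 0 on both axes, down to -6.46 and -3.96 for OSBPL10. The genes were selected on such values.

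Relatives by family or pathway, 130 measured of 139 genes in 7 lists, mostly lacked the members' pattern. Lower in low than in no Myc were 33 (25.4%, beside 8.55% of all genes) and higher 10 (7.69%, beside 11.3%), with a median of -0.19 over the list and -0.00165 over all genes. Leaving out the library labelled no Myc 1 brought the lower count to 13. The higher count was 2 without that library, 4 without no Myc 2 or low Myc 1, and 6 without low Myc 2. Against high Myc 6 were lower (4.62%, beside 2.33% of all genes) and 3 higher (2.31%, beside 1.27%), with a median of -0.016. Those counts were 11 and 6 without high Myc 2 and 3 and 0 without high Myc 3 or high Myc 4, and the higher count was 0 without low Myc 1 and 1 without high Myc 1 or low Myc 2. In high against no Myc the relatives had counts close to those of low against no Myc. There 32 were lower (24.6%, beside 9.0% of all genes) and 9 higher (6.92%, beside 14.2%), with a median of -0.20. A level under that of no Myc was therefore not particular to low Myc among the relatives. The lower count there was 16 without the library labelled no Myc 1. TBC1D2B, TBC1D9B, SOS1 and SYNE2, 4 relatives, were lower in low Myc than in both other groups.

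Of 16 pre-B-cell receptor and early B-cell genes, the kin of VPREB3, 5 were lower and 1 higher in low than in no Myc. The lower ones were CD24, a surface protein of immature B cells (-4.14 ± 0.91), the receptor subunits CD79B (-2.82 ± 0.36) and CD79A (3.99-fold lower), the heavy chain IGHM (-2.31 ± 0.70) and the factor PAX5 (-1.59 ± 0.31). CD79A and CD79B kept the call in all 9 fits that left out 1 array and IGHM in 2, CD24 lost it without either no Myc array, and PAX5 without the library labelled no Myc 1. The lower count was 2 without that library and 3 without no Myc 2. Against high Myc these 5 differed by -0.34 to -1.36 and were not called. LEF1, a factor of early lymphocytes, was higher than in no Myc (1.93 ± 0.30) and lower than in high Myc (-1.33 ± 0.25, limma adjusted p = 0.0268), the latter not without high Myc 1, 3 or 4 or any low Myc array; without high Myc 2 the list had 4 lower. VPREB1 and IGLL1, the surrogate light chain, differed from no Myc by -0.63 and -0.055 and were not called.

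Of 26 adaptors, the kin of GAPT, 9 were lower in low than in no Myc and 0 higher, and 4 were lower without the library labelled no Myc 1. SOS1, the exchange factor that GRB2 brings to RAS, was 3.69-fold lower than in no Myc and 1.94-fold lower than in high Myc (limma adjusted p = 0.00032 and 0.00617), in all 9 fits that left out 1 array. STAP1 (-2.83 ± 0.71), an adaptor downstream of the B-cell receptor, and DOK3 (-1.79 ± 0.47), an inhibitory adaptor, lost the call without low Myc 1 or either no Myc array, and STAP1 also without low Myc 3. LAX1, a membrane adaptor, was lower by -1.64 ± 0.25 and kept the call throughout. BANK1, a B-cell scaffold, was higher than in high Myc (1.09 ± 0.20, limma adjusted p = 0.0237), but not without high Myc 1, 3 or 4 or low Myc 1. Without high Myc 2 the list had 3 lower and 3 higher against high Myc.

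Of 37 TBC-domain proteins, 10 were lower and 4 higher in low than in no Myc, and 3 and 1 without the library labelled no Myc 1. The higher count was 2 without no Myc 2, low Myc 1 or low Myc 2. TBC1D10C (-2.16 ± 0.45), a lymphocyte protein, lost the call without the library labelled no Myc 1, while RABGAP1L (-1.68 ± 0.22) and TBC1D4 (1.63 ± 0.20), known from glucose transporter traffic, kept it in all 9 fits. Against high Myc TBC1D2B (-0.89 ± 0.15), TBC1D24 (-1.02 ± 0.15) and TBC1D9B (-0.41 ± 0.09) were lower, with only TBC1D24 called without high Myc 3 or high Myc 4. TBC1D9B, the paralog of TBC1D9, lost that call without any 1 of the high or low Myc arrays. Of 13 oxysterol-binding relatives and their anchors, OSBPL2 was lower than in no Myc (-0.59 ± 0.15) but not without either no Myc array, and VAPA, an anchor in the endoplasmic reticulum, was higher (0.52 ± 0.15), in 1 of the 9 fits. OSBPL11 differed by -0.26 from no Myc and -0.28 from high Myc and was not called.

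Of 14 genes of the SEL1 family and of degradation at the endoplasmic reticulum, HERPUD1 (-1.09 ± 0.28) and OS9 (-0.63 ± 0.11) were lower than in no Myc, and SELENOS (0.96 ± 0.26) and EDEM1 (0.56 ± 0.14) higher. OS9, a lectin that delivers misfolded proteins, kept the call in all 9 fits, and the other 3 lost it without the library labelled no Myc 1. HERPUD1 and SELENOS lost it without no Myc 2, SELENOS and EDEM1 without low Myc 1, and SELENOS without low Myc 2. Against high Myc limma called 0 of the 14, with 3 at an unadjusted p under 0.05. SEL1L, the best known protein with these repeats, differed from no Myc by 0.25 and was not called.

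Of 8 genes of the IQGAP list, CLIP1 (-1.14 ± 0.22), RAC2 (-0.65 ± 0.16) and IQGAP1 (-0.60 ± 0.13) were lower and RAC1 (0.56 ± 0.13) higher in low than in no Myc. None of the 4 passed without the library labelled no Myc 1, and without no Myc 2 the counts were 2 and 0. RAC2 was higher than in high Myc (0.65 ± 0.13, limma adjusted p = 0.0356), but not without high Myc 3 or 4 or low Myc 1 or 2. IQGAP1, the paralog of IQGAP2, differed from high Myc by 0.36 and IQGAP3 by 0.20, and neither was called. Of 16 calponin-homology proteins, SYNE2, a nesprin of the nuclear envelope, was 2.93-fold lower than in no Myc and 3.56-fold lower than in high Myc (limma adjusted p = 0.002 and 0.00252), in all 9 fits. PARVG (4.61-fold) and UTRN (-1.85 ± 0.24), which join actin to the cell membrane, were lower than in no Myc in all 9 fits, and ACTN1 (1.39 ± 0.37) was higher, but not without low Myc 1 or either no Myc array. LCP1, an actin bundler of blood cells, was higher than in high Myc (0.59 ± 0.13, limma adjusted p = 0.0448), in 1 of the 9 fits, the one without high Myc 2. PAX5, LEF1, BANK1, TBC1D24 and LCP1 were named after their values were seen.

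**Figure D5:**
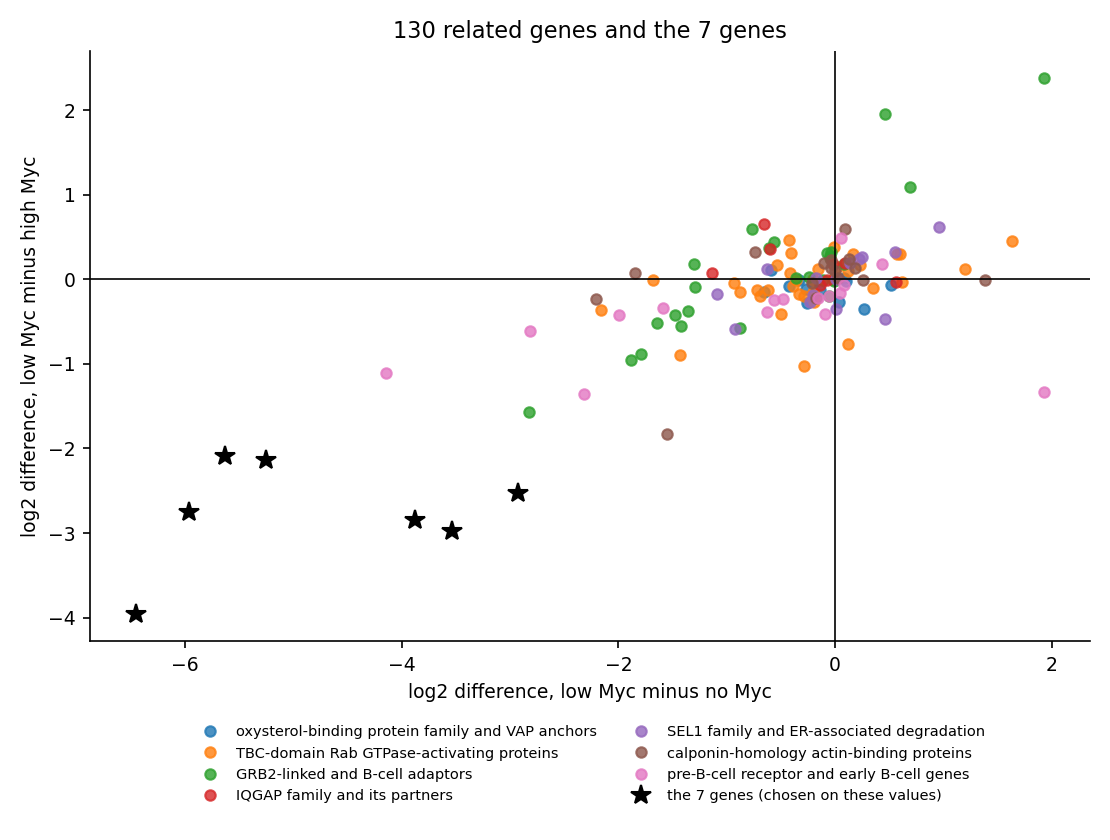
Genes of the 7 relatives lists and the 7 genes, by log2 difference of low Myc from no Myc and from high Myc. The members were selected on these values; among relatives CD24 lies at -4.14 and -1.11.

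The 10 genes most like the members were ZNF595, ADD3, RALGPS2, CD27, KIAA0040, VPS37B, IGHV5-78, DENND5B, SOBP and STK38. Their Pearson correlation over the 9 arrays with the mean z-score of the members was 0.979 to 0.990, among 1477 genes with a mean log2 of at least 5 and a span of at least 2. The 9 points fall in 3 groups, so a difference between groups alone can give a high value. RALGPS2, an exchange factor for Ral GTPases, had intensities of 1249 to 1731 in no Myc, 97.5 to 625 in high Myc and 35.1 to 87.0 in low Myc. CD27, a receptor of memory B cells, had 678 to 701, 172 to 375 and 97.0 to 102. ADD3, of the membrane skeleton, had 3195 to 4453, 883 to 2349 and 480 to 577. The groups of these 3 genes did not overlap. High Myc 2 was the lowest high Myc array in 10 of 10, which follows from choosing them by the members' profile. Between pairs of members the correlation was 0.80 (IQGAP2 with VPREB3) to 0.99 (TBC1D9 with VPREB3), over arrays that include those the members were selected on.

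The nearest measured protein-coding gene on either side of each member, 14 in all and looked up after the members' values were seen, gave 1 gene lower in low Myc than in both other groups. This was SMIM20, beside SEL1L3, at -1.04 from no Myc and -0.83 from high Myc (limma adjusted p = 0.00376 and 0.0233). GPD1L, beside OSBPL10, was lower than in high Myc (-1.78, limma adjusted p = 0.00158) and differed from no Myc by 0.27 (adjusted p = 0.473). STT3B, on the other side of OSBPL10, was higher than in no Myc (0.97, limma adjusted p = 0.00531), and the remaining neighbours were called in neither comparison.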

How the data were processed

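The authors deposited 1 table of intensity per probe set, linear and processed with RMA per the submitters' processing notes, which normalizes between arrays (version and annotation build not given in the sources used here). Array medians were 75.3 to 80.3. The log2 of these deposited values was used, and such normalization can hide a change in total RNA. Probe sets with 1 symbol in the platform annotation (41097; 1801 had several, 11777 none) were renamed by Entrez identifier where possible (41043), and the one with the highest mean stood for each of 19775 genes. Limma 3.58.1 (R 4.3.3) estimated the 3 group means from 9 arrays (6 residual degrees of freedom; two-sided, Benjamini-Hochberg over all genes). On 10 simulated sets of high against no Myc, each 19775 genes with 200 altered, 80.5% of 2-fold and 97.5% of 4-fold changes were found and 5.55% of calls were false. The simulated noise was independent, with the same spread in every group and no array that deviated as high Myc 2 did. These shares therefore do not carry over to the measured arrays. The number of arrays limits precision. Members and lists were chosen with earlier results of these data known. Named genes are the members, MYC, the 10 most correlated genes and, per list, up to 4 called genes with the largest difference and the closest paralogs. Alternatives were another normalization, centring, a filter, array weights, another prior, the median of probe sets, 2-group fits, the replicate block and arrays left out, of which leaving out high Myc 2 and no Myc 1 together was chosen after seeing the data.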

Additional observations from a re-analysis of the deposited data

Results flagged for a closer look

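OSBPL10 on high Myc 2 lay far from the other high Myc arrays. Its log2 gap to the nearest of them was 0.911 of the range of the group, above the 95% critical value of Dixon's test for 4 samples, which chance exceeds in about 1 of 20 groups. Its intensity there was 46.5, beside 607 to 778 on the other 3. The same array was lowest in the other 6 genes, with a gap of 0.492 (CLMN) to 0.793 (SEL1L3) of the range.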

How the results depend on the processing

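The count of members lower in high than in no Myc was 3 under each other setting with all arrays, 2 to 5 with 1 array left out, and 4 with high Myc 2 and no Myc 1 left out together, where OSBPL10 was called at -1.26. None of the member values changed sign. Summarising each gene by the median probe set brought the low Myc distances of the 5 genes with several of them to -1.58 to -3.42 from no Myc and -0.99 to -1.54 from high Myc, and their high against no Myc differences to -0.06 to -2.37. For relatives, the counts with 1 array left out were 13 to 36 lower and 2 to 14 higher in low against no Myc, 3 to 11 and 0 to 6 in low against high Myc, and 16 to 34 and 3 to 12 in high against no Myc. With high Myc 2 and no Myc 1 left out they were 18 and 5, 10 and 4, and 18 and 4. The median of probe sets gave 6 higher in low against no Myc, 1 and 1 in low against high Myc, and 4 higher in high against no Myc. In low against high Myc array weights and repeated quantile normalization gave 7 higher each. The replicate block gave 2 lower and 0 higher there, and moved no other count by over 1.5 times. Arrays numbered 1 deviated together (correlations of 0.45, 0.47 and 0.25), but those numbered 2 (0.07, 0.10 and 0.03) and 3 (-0.31) did not all do so, and the numbers were not taken as pairs. The causes of these shifts were not tested. Dim levels limit the folds of OSBPL10, GAPT and CLMN, and a dim low Myc array limits those of IQGAP2 (low Myc 2) and TBC1D9 (low Myc 1). VPREB3 on low Myc 1 (77.2) and TBC1D9 on low Myc 2 (75.5) lay within the range of the array medians, which limits their folds too.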
